A study of Mus musculus with 2 samples.

Results

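Mechanotransduction in the cochlea depends on the hair bundle, and 10 genes of that machinery are described here across the cell types of the mouse cochlea. The genes were taken by symbol from the deposited gene list, where all 10 of 10 were found once among 27998 genes, and 60 other hair bundle genes served as a wider list of 70 in all. The samples were 2 libraries in 1 group: cochleae of wild type C57BL/6 mice at postnatal day 20, an age after hearing onset, with no treatment or genetic change named in the labels. Cells were separated with trypsin and sequenced in droplets, a method in which each captured RNA molecule is counted once by its unique molecular identifier (UMI). The labels of both libraries name 5 to 8 mice and do not say whether each library had its own. P-values therefore measure only how differences between classes vary between these 2 libraries, which may be technical. The spread behind the edgeR p-values was largely shared across genes and is not that of each gene alone.

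Hair cells turn sound into an electrical signal at their stereocilia, the actin-filled projections that form the hair bundle. Tip links, fine filaments between neighbouring stereocilia, pull on channels at the tips of the shorter rows when the bundle is deflected. Tmc1 codes for a pore-forming subunit of that channel, Tmie for a small membrane protein the channel needs, Lhfpl5 for a membrane protein that joins the channel to the tip link, and Cib2 for a calcium-binding protein that binds the channel. Pcdh15 (protocadherin 15) forms the lower and Cdh23 (cadherin 23) the upper part of the tip link. Myo7a (myosin VIIa) and Ush1c (harmonin) belong to the complex that anchors its upper end, Loxhd1 is needed by mature hair cells for transduction, and Strc (stereocilin) codes for a protein of the connectors between stereocilia tops and of the attachment of outer hair cell bundles to the tectorial membrane. Mutations in all 10 genes cause deafness in mice or humans.

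Since the 10 genes were high in the same cells, their promoters were read for short motifs of factors known in hair cells. RefSeq promoter windows (GRCm38.p6, 250 bases before to 50 after the start) were matched by symbol for 9 of the 10 genes, in 10 windows because Myo7a has more than 1, and Loxhd1 had no entry. The motifs searched on both strands were CAGCTG for the first of 2 E-boxes, CAGATG for the second, ATTAAT for POU4 factors, AATCAC for GFI1 and GTTGCC for RFX factors. CAGCTG, a palindrome, was in 5 of the 10 windows, both Myo7a windows included, against 16.3% of all 32851 windows searched. The windows are thus not all of separate genes, and enrichment was not tested. The match lay 14 and 43 bases after the start in the Myo7a windows and 9 after it in Pcdh15. The Pcdh15 window begins at chr10:73821617, inside the annotated gene, which begins at 73099342. The second Myo7a window (chr7:98109199-98109498) also lies well inside its gene, which begins on the minus strand at 98119524. So does the Strc window, whose upstream part is chr2:121380941-121381190, in a gene that begins on the minus strand at 121387168. GTTGCC was in 1 of 10 (12.5% of all windows), and the second E-box, the POU4 motif and the GFI1 motif were in 0 of 10 (17.2%, 4.75% and 10.4% of all windows). No motif overlapped another. Only 3 windows held a match before the start, and their 250 bases upstream are shown 5′ to 3′ on the gene's strand, with the match in capitals. The windows are chr17:28575469-28575718 (plus) for Lhfpl5, chr9:110880074-110880323 (minus) for Tmie and chr7:98119494-98119743 (minus) for Myo7a.
Lhfpl5: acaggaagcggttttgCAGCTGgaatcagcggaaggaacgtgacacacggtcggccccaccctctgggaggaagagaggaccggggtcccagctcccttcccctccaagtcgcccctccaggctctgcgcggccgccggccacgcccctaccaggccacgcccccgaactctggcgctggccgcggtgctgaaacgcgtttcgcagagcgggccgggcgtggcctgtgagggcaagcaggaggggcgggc
Tmie: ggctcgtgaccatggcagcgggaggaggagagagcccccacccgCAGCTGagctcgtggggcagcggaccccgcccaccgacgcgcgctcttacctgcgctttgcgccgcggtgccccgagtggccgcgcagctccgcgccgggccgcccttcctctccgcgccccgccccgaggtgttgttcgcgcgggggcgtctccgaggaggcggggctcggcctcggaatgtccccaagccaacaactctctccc
Myo7a: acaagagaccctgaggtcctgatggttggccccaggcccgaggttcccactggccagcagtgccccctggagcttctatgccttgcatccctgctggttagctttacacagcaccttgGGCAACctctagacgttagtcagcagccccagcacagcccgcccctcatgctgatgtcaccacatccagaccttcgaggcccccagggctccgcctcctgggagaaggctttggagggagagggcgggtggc
The match began 234 bases before the start in Lhfpl5, 206 before it in Tmie and 132 before it in Myo7a, where the motif lies on the opposite strand and reads as its reverse complement. These matches describe the letters in these windows and say nothing of binding.

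In the GENCODE M21 annotation of GRCm38, the build that the labels name as mm10, the genes lie apart from each other. The channel complex genes were Tmc1 (ENSMUSG00000024749, chr19:20783458-20954202, minus strand), Tmie (ENSMUSG00000049555, chr9:110865711-110880113, minus), Lhfpl5 (ENSMUSG00000062252, chr17:28575641-28585679, plus) and Cib2 (ENSMUSG00000037493, chr9:54544794-54560218, minus). The tip link genes were Pcdh15 (ENSMUSG00000052613, chr10:73099342-74649737, plus) and Cdh23 (ENSMUSG00000012819, chr10:60302748-60696490, minus). The others were Myo7a (ENSMUSG00000030761, chr7:98051060-98119524, minus), Ush1c (ENSMUSG00000030838, chr7:46195350-46238503, minus), Loxhd1 (ENSMUSG00000032818, chr18:77281958-77442930, plus) and Strc (ENSMUSG00000033498, chr2:121363728-121387168, minus). Protein-coding neighbours overlap 4 of them on the other strand: Als2cl overlaps Tmie by 244 bp, Sh2d7 overlaps Cib2 by 227 bp, Vsir and Gm17455 overlap Cdh23 by 25834 and 3834 bp, and Ckmt1 overlaps Strc by 10 bp. The sources used here do not say if reads were counted by strand. In hair cells of library 1, Ckmt1 had 27 UMIs, Als2cl 1, and Sh2d7, Vsir and Gm17455 had 0.

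Library 1 held 1610 barcodes with 20212520 UMIs and library 2 held 720 with 7094752. After filters, 1329 and 640 cells remained (medians of 10601 and 6115.5 UMIs), and the libraries shared 2 barcodes. Clusters were named from fixed markers, and the 13 classes in which both libraries had 3 or more cells were compared. Hair cell-like cells numbered 48 in library 1 (745343 UMIs in sum) and 4 in library 2 (36019 UMIs), so that precision in library 2 was set by 4 cells. They formed a larger cluster of 36 cells, with 9 of 12 hair cell markers raised and led by Slc17a8 and Otof, and a smaller one of 16 cells with 12 of 12 raised. Defining markers were present: Otof, the hair cell synapse gene, and Pou4f3, a hair cell transcription factor, each had UMIs in 52 of 52 cells. Supporting cell markers were also counted in the hair cell-like class, at 8027 and 4469.9 CPM (UMIs per 1000000 UMIs of the class) in the 2 libraries against 25330 and 23727 in supporting cell-like cells, with 2 and 5 of the 8 markers at 0. S100a1 and Rorb made up most of these UMIs, and their part in the results was not tested. The same markers summed to 53717 and 49834 CPM in cluster 14 and to 44054 and 32609 CPM in cluster 12. Both of these unnamed clusters, described below, were thus above supporting cell-like cells.

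All 10 genes were higher in hair cell-like cells than in the mean of the 12 other classes (edgeR quasi-likelihood test on UMIs summed by class and library, adjusted p under 0.05), where 20.3% of the 5398 genes tested were higher. Those 5398 genes, the 10 included, had been kept out of the clustering. The count filter, however, could be passed on the sums of 1 class alone. Tmc1, Cdh23, Loxhd1 and Strc, among others, were at 5.35 CPM or less in every other class compared. They could be tested only because of their hair cell-like counts, so their calls describe their level and are no independent support. The log2 fold changes ran from 2.71 for Pcdh15 to 9.10 for Lhfpl5, with a median of 6.88, against a median of -0.08 over all genes tested. In each library each of the 10 was above its level in all other cells summed, and levels in hair cell-like cells differed most between libraries, as a ratio, for Strc (53.7 and 111 CPM) and Cdh23 (110 and 55.5). The DESeq2 Wald test called 7 of the 10, and gave adjusted p = 0.061 for Cdh23, 0.149 for Loxhd1 and 0.313 for Strc. A fitted fold change depends on a small added count where other classes hold 0 UMIs, so plain levels in CPM are given beside it, with exact Poisson 95% intervals that cover counting error only. The SE printed with a fold change was worked back from that fold change and its edgeR test statistic. It is not a separately fitted standard error, and is unreliable for fold changes near 0 and for classes with 0 UMIs.

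**Figure D1:**
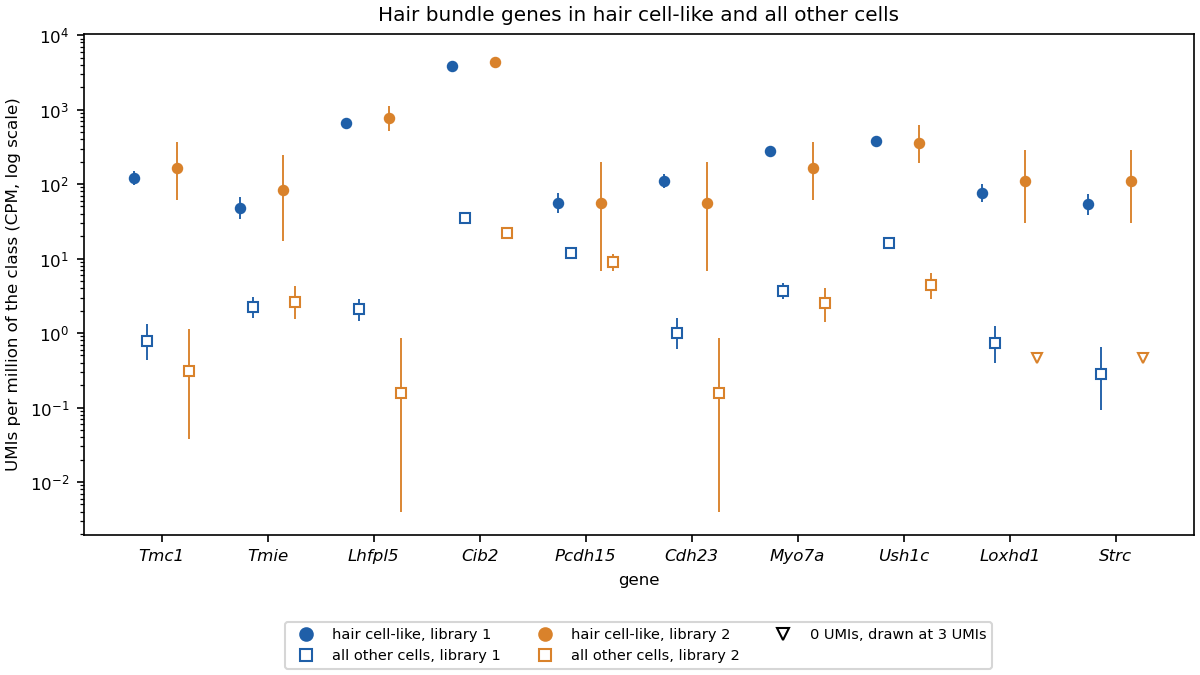
Levels of the 10 genes in CPM (log scale) in hair cell-like cells (filled circles) and in all other cells summed (open squares), for library 1 (blue) and library 2 (orange); bars are exact Poisson 95% intervals, and triangles mark 0 UMIs at the level of 3 UMIs. Every filled circle lies above the open symbols of its library, and the gap is narrowest for Pcdh15, at 56.3 and 55.5 against 11.8 and 9.04.

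Of the channel complex, Tmc1 had 91 UMIs in hair cell-like cells of library 1 (122 CPM) and 6 in library 2 (167 CPM). In all other cells it had 14 and 2 UMIs, 0.789 and 0.312 CPM, so that 85.8% of all Tmc1 UMIs lay in the 52 hair cell-like cells. The ratio of the levels was 155 (interval 87.6 to 294) in library 1 and 534 (95.6 to 5414) in library 2. Both intervals, which cover the summed counts and not single cells, lie above 1. The fitted log2 fold change was 7.21 ± 0.48 (SE; edgeR adjusted p = 4.3e-33). Tmc1 was seen in 34 of 48 hair cell-like cells of library 1, and all 6 of its UMIs in library 2 came from 1 of 4 cells. Tmc2, the channel subunit of immature hair cells, had 0 UMIs in the class, which allows up to 3.84 CPM.

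Lhfpl5, like Cib2, was seen in every hair cell-like cell, 48 of 48 and 4 of 4. It had 489 and 28 UMIs there, 656 and 777 CPM, against 37 and 1 UMIs in all other cells. The ratio was 314 in library 1 (interval 225 to 452) and 4987 in library 2, where the lone UMI outside leaves an interval of 825 to 203940. The fitted log2 fold change was 9.10 ± 0.27 (SE; edgeR adjusted p = 5.9e-81), and 93.2% of Lhfpl5 UMIs were in hair cell-like cells. 4 of the 12 other classes held 0 Lhfpl5 UMIs in both libraries.

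Cib2 was present in every hair cell-like cell and was also spread over other classes. It had 2863 and 159 UMIs in hair cell-like cells, 3841 and 4414 CPM, and 616 and 141 UMIs in all other cells, 34.7 and 21.98 CPM. The level in hair cell-like cells was 111 times (interval 101 to 121) and 201 times (159 to 254) that of the other cells, and the fitted log2 fold change was 6.56 ± 0.19 (SE; edgeR adjusted p = 2.4e-81). Outside hair cells, Cib2 was seen in 30 of 43 cells of cluster 14 in library 1, an unnamed cluster led by Fabp7 and Fzd9 that carries the epithelial gene Epcam, in 20 of 34 cells of cluster 12, led by Ucma and Frzb, and in 38 of 82 supporting cell-like cells. In library 2 it was seen in 5 of 6 cells of cluster 14 and 6 of 22 of cluster 12 (44.8 CPM, against 119 CPM in library 1), and in 0 of 7 supporting cell-like cells. No other class was at 0 for Cib2 in both libraries, and clusters 12 and 14 were called higher than the mean of the other non-hair classes, by 1.59 ± 0.34 and 1.69 ± 0.33 on the log2 scale (SE; edgeR adjusted p = 8.6e-05 and 1.0e-05), where 11.9% and 15.1% of all genes tested were higher. It was lower in the non-sensory epithelium-like class (2 and 0 UMIs; -3.02 ± 0.78, SE; edgeR adjusted p = 0.0019), where 4.33% of all genes tested were lower. Cib2 was also seen in 6 of 6 cells of cluster 22, at 236 CPM, a library 1 cluster led by the neuronal genes Nefh and Snap25 that was too small for the fit. Cib3, a relative of Cib2, had 0 UMIs in hair cell-like cells and 7 elsewhere.

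Tmie was the channel complex gene with the largest share outside hair cells: 40.6% of its UMIs were in hair cell-like cells. It had 36 and 3 UMIs there, 48.3 and 83.3 CPM, and 40 and 17 UMIs in all other cells, 2.26 and 2.65 CPM, with ratios of 21.4 (interval 13.3 to 34.5) and 31.4 (5.90 to 109). The fitted log2 fold change was 4.53 ± 0.55 (SE; edgeR adjusted p = 8.6e-13). The non-sensory epithelium-like class, which carries Slc26a4 and Lrp2, had 3 and 5 Tmie UMIs, 14.3 and 28.9 CPM, and was the only other class from which hair cell-like cells were not called different, at 1.40 ± 0.73 (SE; edgeR adjusted p = 0.17), where 10.6% of all genes tested were higher. Both values of that class lay below the lower hair cell-like value, on 8 UMIs in all.

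The tip link genes differed in how far they were limited to hair cells. Cdh23 had 82 and 2 UMIs in hair cell-like cells, 110 and 55.5 CPM, and 18 and 1 in all other cells, with a fitted log2 fold change of 7.21 ± 0.52 (SE; edgeR adjusted p = 4.8e-29). Of all Cdh23 UMIs, 81.6% were in hair cell-like cells, and 6 of the 12 other classes were at 0. Pcdh15 had 42 and 2 UMIs in hair cell-like cells, 56.3 and 55.5 CPM, but 209 and 58 in all other cells, 11.8 and 9.04 CPM, so that 14.1% of its UMIs were in hair cell-like cells. Its ratio to all other cells was 4.78 (interval 3.35 to 6.69) in library 1 and 6.14 (0.727 to 23.2) in library 2, where 2 UMIs do not separate the groups. The fitted log2 fold change was 2.71 ± 0.46 (SE; edgeR adjusted p = 1.9e-07).

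Pcdh15 was not called different between supporting cell-like and hair cell-like cells, where 10.2% of all genes tested were higher in the latter. Supporting cell-like cells had 60 and 2 Pcdh15 UMIs, 53.5 and 43.8 CPM, in 36 of 82 and 2 of 7 cells. The log2 difference between the classes was -0.01 ± 0.41 (SE; edgeR adjusted p = 1.0). So near 0 this SE does not measure a range, and a difference in either direction is not excluded. Hair cell-like cells were also not called different in Pcdh15 from cluster 7, which carries the cartilage and bone genes Col2a1 and Dmp1 (0.52 ± 0.45, SE), cluster 12 (0.56 ± 0.50) or cluster 14 (0.95 ± 0.48), with edgeR adjusted p of 0.40, 0.47 and 0.14, where 17.0%, 11.9% and 12.8% of all genes tested were higher. Against the other 8 classes Pcdh15 was higher in hair cell-like cells. Both supporting cell-like clusters carried it, in 22 of 54 cells and in 14 of 28 cells of library 1.

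Of the anchoring complex, Myo7a had 209 and 6 UMIs in hair cell-like cells, 280 and 167 CPM, against 66 and 16 in all other cells, 3.72 and 2.49 CPM. Its ratio was 75.3 (interval 56.9 to 101) and 66.8 (21.4 to 180), and its fitted log2 fold change 5.80 ± 0.27 (SE; edgeR adjusted p = 8.5e-52). Myo7a was seen in 44 of 48 and 4 of 4 hair cell-like cells. Ush1c had 286 and 13 UMIs in hair cell-like cells, 384 and 361 CPM, against 291 and 28 in all other cells, 16.4 and 4.36 CPM. Its ratio differed between libraries, 23.4 (interval 19.8 to 27.6) and 82.7 (39.3 to 165), and 48.4% of its UMIs lay in hair cell-like cells. The fitted log2 fold change was 5.55 ± 0.25 (SE; edgeR adjusted p = 3.6e-55).

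Most Ush1c outside hair cells lay in 2 other classes. Supporting cell-like cells had 166 and 5 UMIs of Ush1c, 148 and 110 CPM, and it was seen in 64 of 82 and 5 of 7 of them. Cluster 14 had 79 and 11 UMIs, 88.8 and 122 CPM, in 34 of 43 and 5 of 6 cells. Both classes lay below hair cell-like cells, which were higher by 1.28 ± 0.30 and 1.70 ± 0.31 on the log2 scale (SE; edgeR adjusted p = 0.00033 and 2.9e-06). Against the mean of the other non-hair classes, Ush1c was higher by 4.65 ± 0.29 in supporting cell-like cells and by 4.20 ± 0.33 in cluster 14 (SE; edgeR adjusted p = 1.2e-35 and 1.3e-25). It was lower in clusters 0, 1 and 4, led by Dcn, Nov and Lox, in each of which it had between 1 and 4 UMIs in all, and 3.59%, 6.02% and 4.61% of all genes tested were lower in those clusters.

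Loxhd1 and Strc were close to limited to hair cell-like cells. Loxhd1 had 57 and 4 UMIs there, 76.5 and 111 CPM, against 13 UMIs in all other cells of library 1 and 0 in those of library 2. The ratio was 104 (interval 56.4 to 208) in library 1 and at least 237 in library 2, taking 3 UMIs over the other cells as the floor. The fitted log2 fold change was 7.24 ± 0.59 (SE; edgeR adjusted p = 2.6e-24), and 7 of the 12 other classes were at 0. Strc had 40 and 4 UMIs in hair cell-like cells, 53.7 and 111 CPM, against 5 and 0 in all other cells, a ratio of 190 (interval 75.1 to 618) in library 1 and at least 237 in library 2. The fitted log2 fold change was 7.26 ± 0.64 (SE; edgeR adjusted p = 9.7e-22), 89.8% of all Strc UMIs lay in hair cell-like cells, and 8 of the 12 other classes were at 0.

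**Figure D2:**
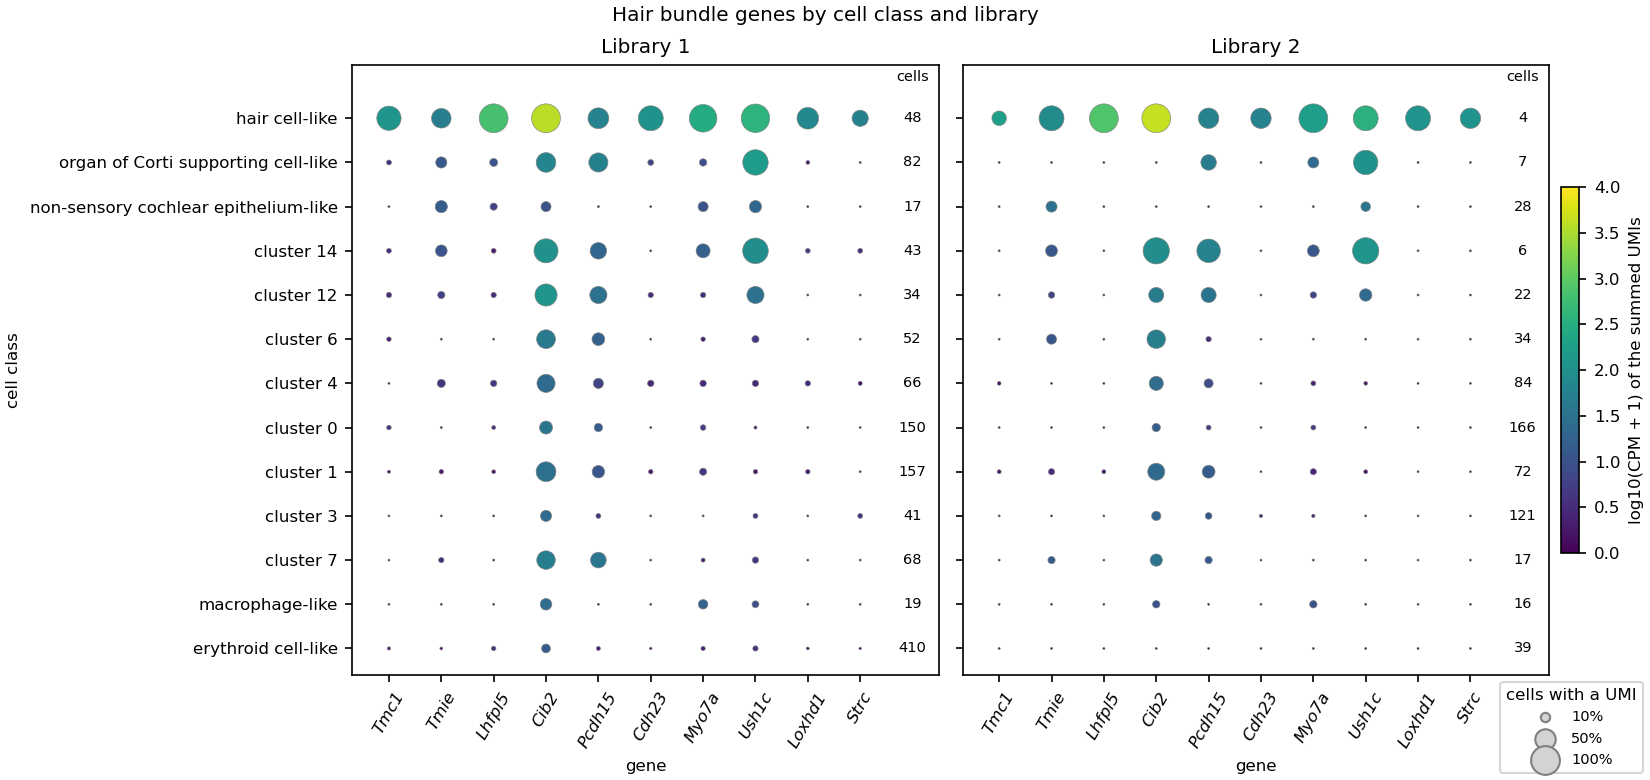
Each dot is 1 gene in 1 class and library; its area grows with the share of cells with a UMI, its colour shows log10(CPM + 1), the smallest dots mark genes with no or almost no UMIs, and the number of cells stands at the right. The hair cell-like row is filled for all 10 genes. Cib2, Pcdh15 and Ush1c also have large dots in clusters 12 and 14 and in supporting cell-like cells, except Cib2 in those of library 2 (0 UMIs).

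Set against each class in turn, hair cell-like cells were higher in 95.8% of the 10 by 12 gene-class pairs, against 15.7% of pairs over all genes tested. The pairs not called were the 4 of Pcdh15 and the 1 of Tmie named above. These pairs include the genes, named above, that could be tested only because of their hair cell-like counts. DESeq2 called 59.2% of the pairs. Among the other classes, 18 gene-class pairs were called higher than the mean of the remaining non-hair classes, or 15% of 120, a share near the 15.6% of pairs over all genes. DESeq2 called 11 of them, and all 18 were tested there. When only classes of at least 10 cells were kept, supporting cell-like cells and cluster 14 were no longer tested, which took out 11 of the 18 pairs, and the other 7 were called again. Supporting cell-like cells, where 15.9% of all genes tested were higher, held 5 of the 18 (Ush1c, Pcdh15, Lhfpl5, Tmie and Cdh23) and cluster 14 held 6 (Ush1c, Cib2, Pcdh15, Tmie, Myo7a and Loxhd1). Several of these calls rest on few molecules: Cdh23 in supporting cell-like cells on 6 UMIs in 3 cells, Lhfpl5 there on 11 UMIs in 6 cells, and Loxhd1 in cluster 14 on 4 UMIs in 1 cell, with 0 in library 2 in each case. The other 7 were Cib2, Pcdh15 and Ush1c in cluster 12, Tmie and Ush1c in the non-sensory epithelium-like class, Pcdh15 in cluster 7 and Lhfpl5 in erythroid cell-like cells (12 and 0 UMIs), classes in which 11.9%, 11.8%, 10.8% and 22.6% of all genes tested were higher. In that erythroid class haemoglobin genes made up 70.6% and 84.3% of UMIs, and their part in the Lhfpl5 call was not tested.

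Erythroid cell-like cells, a class not expected to carry hair bundle RNA, serve as a reference. Where their UMIs of these genes come from was not tested. Their median in library 1 was 10689 UMIs against 14000.5 in hair cell-like cells, but 70.6% of the UMIs of the class were from haemoglobin genes. The 410 erythroid cell-like cells of library 1 had 59 Cib2 UMIs, in 9.02% of cells, 12 of Lhfpl5, in 1.95%, and 12 of Ush1c, in 2.93%. In library 2, 0 of 39 erythroid cell-like cells had a UMI of any of the 10 genes, which for each gene allows a share of up to 7.69% of cells by the floor of 3 cells and 9.03% by the exact binomial 95% interval. In library 1, Lhfpl5 UMIs were 20.3% of Cib2 UMIs in erythroid cell-like cells, 17.1% in hair cell-like cells, 15.3% in supporting cell-like cells and 1.10% in cluster 14. Ush1c UMIs were 20.3%, 9.99%, 231% and 86.8% of Cib2 UMIs in the same order, and Pcdh15 UMIs 10.2%, 1.47%, 83.3% and 19.8%. The erythroid ratios of Ush1c and Pcdh15 were thus above those of hair cell-like cells, on 12 and 6 UMIs. Lhfpl5 was seen in 7.32% of the supporting cell-like cells of library 1 (exact binomial 95% interval 2.73% to 15.2%), which overlaps its interval in erythroid cell-like cells (0.846% to 3.81%), and no expression there is read from it. Cib2, Pcdh15 and Ush1c in supporting cell-like cells and in cluster 14, at 32.6% to 79.1% of cells in library 1, were above their erythroid shares of 9.02%, 1.46% and 2.93%.

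The share of cells with a UMI was lower at equal, lower depth. With each cell thinned to 3000 UMIs, shares in the 48 hair cell-like cells of library 1 fell from 70.8% to 29.2% for Tmc1, from 52.1% to 18.8% for Pcdh15 and from 91.7% to 54.2% for Myo7a, while Cib2 stayed at 100% and Lhfpl5 was at 79.2%. In all other cells of library 1 the thinned shares were 0.0781% for Tmc1, 3.67% for Pcdh15, 1.01% for Myo7a, 8.12% for Cib2 and 0.312% for Lhfpl5. Counted together without thinning, the genes set most hair cell-like cells apart from other cells, with some overlap. Each of the 52 had UMIs of at least 4 of the 10 genes, and 3 of them had all 10. The cut-off of 4 is the lowest count in the class, found in 5 cells, so that all 52 reach it by construction. Of 1917 other cells, 18 reached 4 genes, the most in any of them was 8, and 1229 had none. Hair cell-like cells also had more UMIs, with a median of 14000.5 in library 1 against 10601 over all cells of that library. The number of genes per cell was not taken at equal depth.

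Within the hair cell-like class the genes were not even, and this is a description with no test because nearly all cells came from library 1. By fixed inner and outer hair cell markers the larger cluster was inner-type in 36 of 36 cells, with 0 UMIs of the outer hair cell motor gene Slc26a5. The smaller cluster held 6 outer-type cells (5 from library 1 and 1 from library 2), with 2371 UMIs of Ocm and 16 of Slc26a5, and 10 inner-type cells (9 and 1), with 2633 UMIs of Calb2. Those 10 cells had a median of 1.96% mitochondrial UMIs, against 10.7% in the larger cluster and 10.4% in the outer-type cells, and had few UMIs of other inner hair cell markers (Slc17a8 19, Slc7a14 5), against 959 of Slc17a8 in the 36 cells of the larger cluster. Dropping Calb2 changed the type of 0 cells. At Leiden resolution 2.0, a cluster of 10 cells (9 and 1) with the same median of 1.96% mitochondrial UMIs was separate. It had 7 of 12 hair cell markers raised and was not named hair cell-like. That setting left 39 and 3 hair cell-like cells in the 2 libraries. What these 10 cells are was not settled: inner-type says only which marker list was higher, and their values are not given as those of inner hair cells. What this difference in mitochondrial share contributes to the levels below was not tested. The larger cluster also held 71 UMIs of the supporting cell gene Lfng in 14 cells and 62 of Sox2 in 15, and 222 of Ocm in 18 cells.

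**Figure D3:**
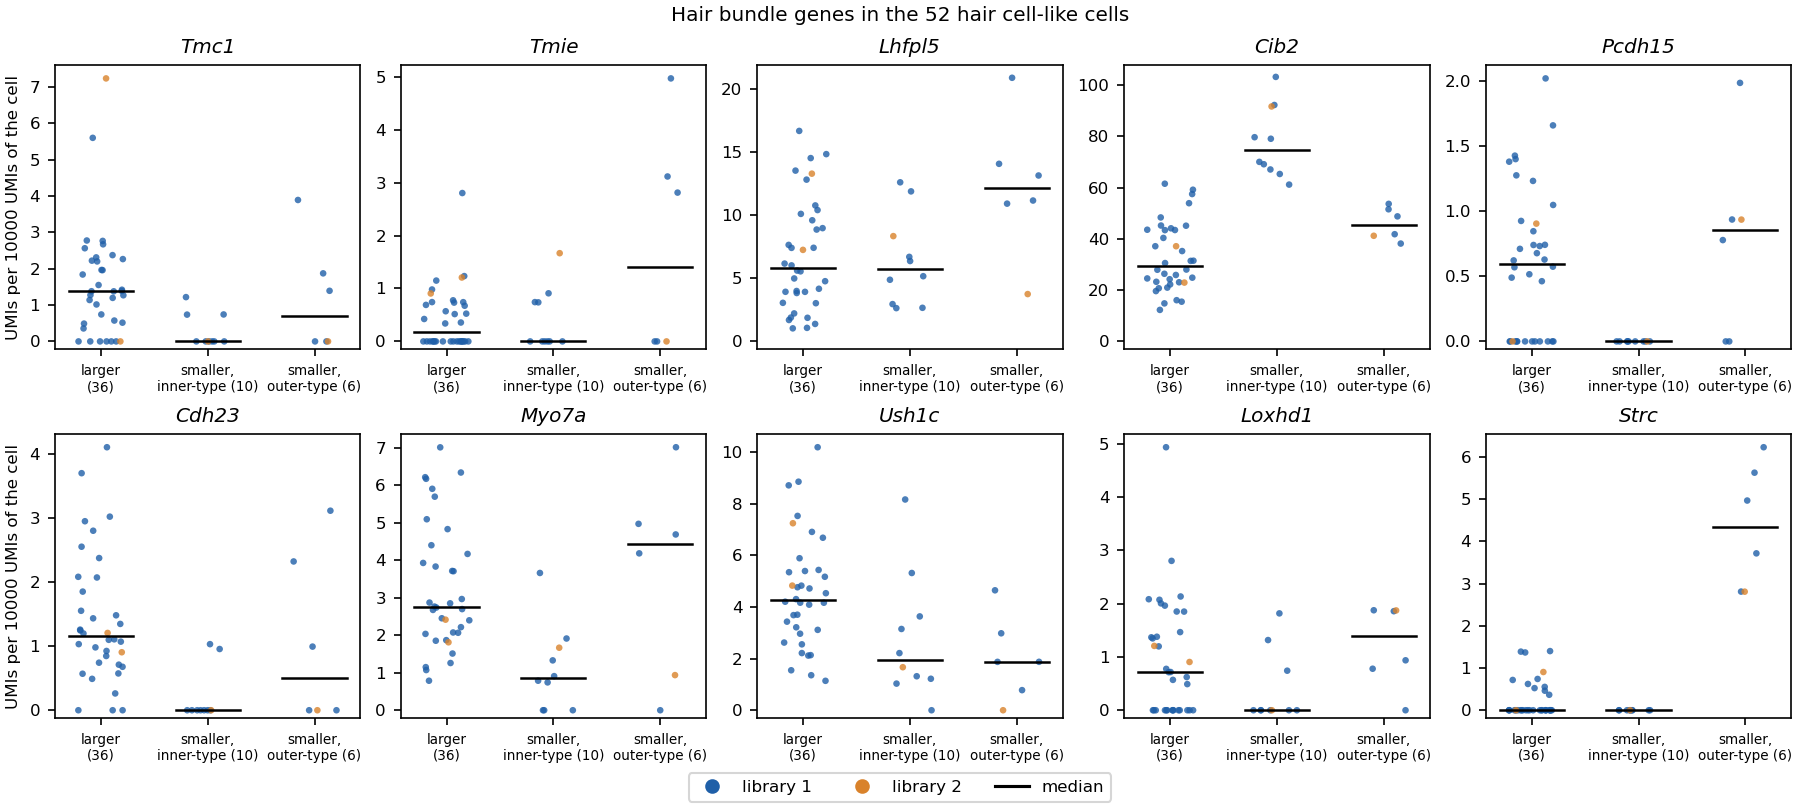
UMIs per 10000 UMIs of the cell for each gene in each of the 52 hair cell-like cells, in the larger cluster (36 cells), the inner-type (10) and the outer-type cells (6) of the smaller cluster; blue points are library 1, orange points library 2 and lines are medians. Strc is high in all 6 outer-type cells, the median of Cib2 is highest in the 10 inner-type cells of the smaller cluster, and Pcdh15 and Strc are at 0 in all 10 of those.

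Strc separated the outer-type cells from the others. Its count was 3 to 8 UMIs in each of the 6 outer-type cells (median 4.34 per 10000 UMIs, range 2.81 to 6.23), 0 in all 10 inner-type cells of the smaller cluster, and at most 2 in the 36 cells of the larger cluster, 11 of which had any (highest 1.40 per 10000). The outer-type cells did not overlap the other cells. Pooled levels were 422 CPM (exact Poisson interval 285 to 602) in outer-type cells and 23.2 CPM (12.7 to 39.0) in the larger cluster. The outer-type cell of library 2 had 3 Strc UMIs, and in the larger cluster of library 2, 1 of 2 cells had a UMI.

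Cib2 was highest in the 10 inner-type cells of the smaller cluster, the cells without Strc. Its median was 74.5 per 10000 UMIs (range 61.2 to 103) in the 10 inner-type cells of the smaller cluster, 45.3 (38.2 to 53.6) in outer-type cells and 29.3 (12.3 to 61.5) in the larger cluster. The first range does not overlap the second and overlaps the third by a single cell of the larger cluster. The library 2 cell among those 10 had 55 UMIs of Cib2, 9164 CPM, and lay inside the range of the 9 from library 1. Lhfpl5 medians were 5.76, 12.1 and 5.81 in the same order, with overlapping ranges.

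Pcdh15, Cdh23, Tmc1 and Myo7a were seen in a smaller share of the 10 inner-type cells of the smaller cluster than of the larger one. Pcdh15 was seen in 0 of 10 cells against 23 of 36, Cdh23 in 2 of 10 against 33 of 36, Tmc1 in 3 of 10 against 29 of 36, and Myo7a in 7 of 10 against 36 of 36. Their median depth was lower, 10736 against 14561 UMIs, and with each cell thinned to 3000 UMIs the counts were 0 of 10 against 8 of 36 for Pcdh15, 0 of 10 against 13 of 36 for Cdh23, 0 of 10 against 13 of 36 for Tmc1 and 3 of 10 against 20 of 36 for Myo7a. For Pcdh15 a count of 0 in 107832 UMIs allows up to 34.2 CPM (exact Poisson bound), below the 64.7 CPM (46.0 to 88.5) of the larger cluster. Tmie did not follow these 4 genes. It was at 37.1 CPM (10.1 to 94.98) in the 10 inner-type cells, 38.2 CPM (24.2 to 57.3) in the larger cluster and 169 CPM (87.2 to 295) in outer-type cells, and was seen in 4 of 10, 18 of 36 and 3 of 6 cells. After thinning to 3000 UMIs, Tmie was seen in 2 of 10 inner-type cells and 3 of 36 cells of the larger cluster. Ush1c (239 to 417 CPM) and Loxhd1 (46.4 to 127 CPM) had overlapping ranges across the 3 sets of cells.

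Most tested genes of the wider hair bundle list were also higher in hair cell-like cells. Of the 60 other list genes, 47 had enough counts to be tested, of which 29 were higher, 5 lower (13.7% of all genes tested were lower) and 13 not called, with a median log2 fold change of 3.37. Some of the higher genes, such as Grxcr1 at 0 CPM in all other cells, could be tested only because of their hair cell-like counts. The count of higher genes is therefore a description. DESeq2 called 18 higher and 5 lower. Some genes were only grouped with the transduction complex on the list, and not all of them are parts of it. Of these, Dfnb59 (pejvakin, 8.61 ± 0.37, SE), Tomt, which is needed to bring the channel to the bundle (8.56 ± 0.39), and Tmem63b (2.20 ± 0.29) were higher. Their hair cell-like counts were 172 and 15, 173 and 5, and 74 and 5 UMIs. The edgeR adjusted p-values of these 3 genes were 1.3e-11 or lower.

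The ankle link and Usher 2 and 3 genes were higher in 5 of 5 tested. For Vezt (63 and 1 UMIs) the log2 CPM difference from the other classes was 1.52 in library 1 but -0.51 in library 2. Adgrv1 rested on 14 and 1 UMIs. Clrn1 (clarin 1) rose by 7.30 ± 0.59 (SE) on 61 and 2 UMIs and Ptprq, a phosphatase of the bundle base, by 7.26 ± 0.61 on 42 and 6. Of genes that set stereocilia length at the tip of the tallest row, 5 of 11 were higher and 1 lower, led by Myo15, the motor that carries tip proteins (7.53 ± 0.57; 51 and 9 UMIs). Of the actin core, rootlet and taper genes, 13 of 21 were higher and 3 lower, led by Elmod1 (8.29 ± 0.47), Grxcr1 (7.97 ± 0.67), Grxcr2 (7.70 ± 0.57), Xirp2 (7.67 ± 0.57) and the actin crosslinker Fscn2 (7.60 ± 0.31). In library 2, Elmod1 had 12 UMIs, Grxcr1 1, Grxcr2 3, Xirp2 4 and Fscn2 18. DESeq2 kept the direction of these named genes but did not call Dfnb59, Tomt, Elmod1, Grxcr1, Grxcr2, Xirp2, Myo15, Clrn1 and Ptprq (adjusted p from 0.095 to 0.37).

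**Figure D4:**
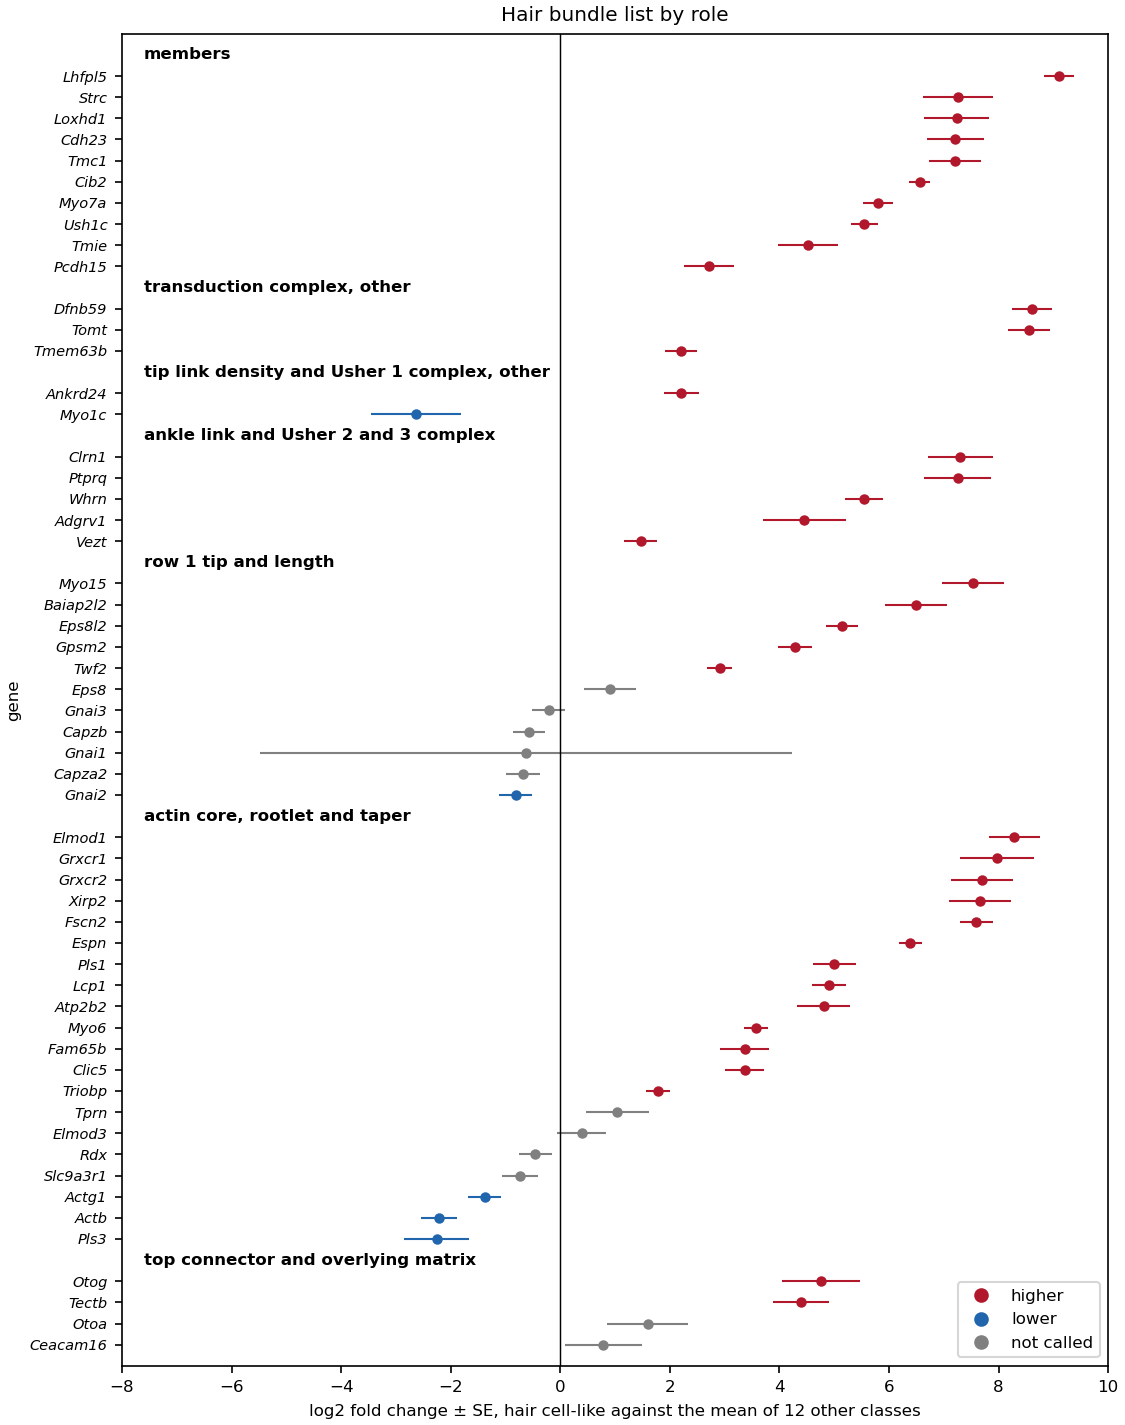
Log2 fold change (± SE) of each tested gene of the wider list in hair cell-like cells against the mean of 12 other classes, grouped by role; red is higher, blue lower and grey not called by edgeR. The genes Fscn1 and Piezo2, at 0 UMIs in hair cell-like cells, have no usable error and are not drawn. Of the genes described above, 10 of 10 are red, at 2.71 to 9.10.

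The 5 lower genes were widely expressed actin and signalling genes. The actin genes Actb and Actg1 were lower by -2.22 ± 0.33 and -1.38 ± 0.30 on the log2 scale (SE; edgeR adjusted p = 2.8e-09 and 5.9e-05), though both have close sequence copies among which reads could be split. Pls3 (plastin 3, 5 and 0 UMIs) and Myo1c (2 and 0 UMIs) were lower by -2.26 ± 0.59 and -2.63 ± 0.82 (SE; edgeR adjusted p = 0.00093 and 0.0063), and Gnai2 by -0.81 ± 0.30 (adjusted p = 0.026). The call of Gnai2 was lost under 6 of the alternatives. Fscn1, the other fascin, had 0 UMIs in hair cell-like cells and 900 in other cells, which puts the other cells at least 9.71-fold higher, against 226 and 18 UMIs of Fscn2 in hair cell-like cells. Piezo2, a mechanically gated channel of other sensory cells, had 0 UMIs there and 200 elsewhere, at least 2.16-fold higher in the other cells.

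The list genes with the largest calls outside hair cells were mostly genes of the overlying tectorial membrane and its attachment. Tectb (beta-tectorin) was 9.21 ± 0.27 higher (log2, SE) in supporting cell-like cells than in the mean of the other non-hair classes, at 796 and 548 CPM. Otog (otogelin; 345 and 438 CPM; 6.76 ± 0.57) and Ceacam16 (3680.5 and 3045 CPM; 6.03 ± 0.45) were also higher there, with edgeR adjusted p of 4.7e-83, 4.4e-06 and 1.4e-07 for the 3 genes. Ceacam16 was not limited to that class. It was also called higher in the non-sensory epithelium-like class (188 and 554 UMIs; 5.80 ± 0.50; edgeR adjusted p = 1.1e-06) and in cluster 12 (2.89 ± 0.55; adjusted p = 0.0020). Cluster 14 was called higher for Otog (5.43 ± 0.70; edgeR adjusted p = 0.00017). Otoa (otoancorin) was higher in the non-sensory epithelium-like class (124 and 122 CPM; 5.85 ± 0.47; adjusted p = 3.2e-24) and the plastin Lcp1 in macrophage-like cells (332 and 433 CPM; 7.07 ± 0.36; adjusted p = 1.6e-47), where 10.1% of all genes tested were higher. Both were also among the genes called higher in supporting cell-like cells (edgeR adjusted p = 3.9e-08 for Otoa and 1.8e-15 for Lcp1). In hair cell-like cells Tectb and Otog were also called higher, by 4.40 and 4.76, on 41 and 121 UMIs of library 1 and 0 of library 2. These 2 calls rest on library 1, whose hair cell-like cells also held the supporting cell gene UMIs given above, and their part in the calls was not tested.

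Of the genes outside the list, those whose levels over the 26 class sums most resembled the mean of the 10 were Crip3 (Pearson r = 0.972), Rbm24, a known hair cell RNA-binding protein gene (0.967), A530016L24Rik (0.966), Sall3 (0.965) and Ppp1r27 (0.964), among 5341 genes compared on log2(CPM + 10). The sums share 2 libraries and differ in depth, so r is a description and carries no p. Of the 10 genes themselves, r with their mean was from 0.633 for Pcdh15 and 0.819 for Ush1c to 0.971 for Tmc1. Ppp1r27 had 228 and 7 UMIs in hair cell-like cells, Rbm24 197 and 25, A530016L24Rik 96 and 5, Sall3 80 and 8 and Crip3 33 and 3.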

How the data were processed

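Droplet single-cell RNA sequencing measured P20 mouse cochlea in 1 group of 2 libraries. The deposited values were whole-number UMI counts, which the authors had obtained by Cell Ranger 2.1.0 against mm10, per the submitters' processing notes. Barcode selection and strand setting are not given in the sources used here. The genes described, the wider list, the markers and the tests were chosen with earlier results of these data known.

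Barcodes under 300 genes or over 20% mitochondrial UMIs were removed. Scrublet (expected rate 2%, per library) marked 2 and 4 doublets, which were removed. In scanpy 1.11.5, 2000 variable genes plus markers (2022 in all), 30 components, 15 neighbours and Leiden resolution 1.0 gave the clusters. The genes described and 13963 genes in all were held out of clustering. A cluster was named when at least 3 markers and 40% of a list were raised (log2 fold of 1 on CPM + 10, in 10% of cells), 20 points ahead of the next list, with a marker among its 10 leading genes. UMIs were summed by class and library, and edgeR 4.0.16 (quasi-likelihood, TMM, minimum count 10) was fitted with the library as replicate block, since all classes of a library share 1 cell suspension. P-values were adjusted by Benjamini-Hochberg over 5398 held-out genes, with a threshold of 0.05. Floors take 3 counts, and intervals and floors cover counting error only. In simulated data for the comparison of hair cells with the mean of other classes, over 5398 genes, 20.3%, 64.2% and 70.3% of genes changed by log2 1, 2 and 3 were recovered, and 0.135% of unchanged genes were called. The simulation gave each gene the same mean share in all classes, apart from the set changes, and all genes 1 common spread. The real data have class differences and spreads that vary by gene, so these rates do not carry over to them.

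Named genes were the 10; of the wider list, the 10 largest called higher, every gene called lower and the 5 largest called higher in another class; and the 5 genes of most similar level. Genes that differ from this rule (Tmc2, Cib3, Fscn1, Piezo2, Tmem63b) were named after their values were seen. Alternatives were DESeq2 1.42.0, other size factors, no count filter, no replicate block, stricter cell filters, resolution 2.0, all variable genes in clustering, no doublet removal, a marker gate, larger classes, 1 library left out and, added after seeing the data, the larger hair cell cluster alone.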

Additional observations from a re-analysis of the deposited data

Results flagged for a closer look

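Hair bundle UMIs were also found in barcodes left out of every comparison, above the 3 counts used as a floor. In the 335 barcodes with fewer than 300 genes, the 10 genes had 18 UMIs, of which 14 were Cib2. The 6 barcodes marked as doublets held 43, with 21 of Cib2 and 11 of Lhfpl5. The 20 barcodes over 20% mitochondrial UMIs held 47, with 14 of Cib2, 12 of Lhfpl5, 7 of Myo7a, 6 of Ush1c and 5 of Cdh23. No cell type was given to these barcodes.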

How the results depend on the processing

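The fold changes of the 10 genes were above 0 in all settings in which they were tested, from 2.1 (Pcdh15) to 9.53 (Lhfpl5) on the log2 scale. Without the replicate block the count of the 10 genes called higher was 10, that of other list genes 29 higher and 5 lower, and 18 pairs in other classes were higher; no call of the genes named was lost. When cells under 500 genes or over 10% mitochondrial UMIs were removed, 26 and 1 hair cells remained, 6 of the 10 genes were called and the other 4 (Tmc1, Cdh23, Loxhd1 and Strc) had too few counts to be tested, while 2 other list genes and 424 of all genes were lower. DESeq2 called 18 other list genes higher, 59.2% of gene-class pairs, and 11 of the 18 pairs in other classes; the cause was not tested. Clustering on all variable genes gave 2593 genes higher, from a test over all genes instead of the held-out ones. The marker gate (72 and 4 cells, 24 of them from other classes) left 278 genes lower, and with classes of at least 10 cells 8 pairs were higher in other classes: 11 of the 18 were no longer tested, the other 7 were called again, and Ush1c in erythroid cell-like cells was added. Shares of hair cell-like cells of library 1 with a UMI, thinned to 3000 UMIs, were 29.2% for Tmc1, 79.2% for Lhfpl5, 14.6% for Tmie, 18.8% for Pcdh15, 33.3% for Cdh23, 54.2% for Myo7a, 68.8% for Ush1c and 22.9% for Loxhd1. Without thinning, shares of cells of the marker gate in library 1 were 51.4% for Tmc1, 70.8% for Lhfpl5, 88.9% for Cib2, 52.8% for Cdh23, 69.4% for Myo7a and 76.4% for Ush1c, against 70.8%, 100%, 100%, 75.0%, 91.7% and 97.9% in hair cell-like cells. With 1 library left out no residual degrees of freedom remain, and the log2 CPM difference without a test was above 0 in each library for all 10 genes, from 1.64 (Pcdh15) to 7.19 (Lhfpl5). Library 2, with 4 hair cell-like cells, limits every value.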
